A study of Mus musculus with 15 samples.

Results

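The transcription factor genes Lhx1, Pax8, Emx2, Hnf4a, Hnf4g, Foxc1 and Foxc2 act in the first nephron structures, and their transcripts were followed in sorted newborn mouse kidney cells from P0 (postnatal day 0) to P4. The 7 genes were taken by name from the 19938 genes that the array measured with a probe set of 1 gene symbol, and each had 1 such probe set. A gene entered the tests if it exceeded the median of all deposited values (log2 6.86) in at least 3 samples. Of the 11885 genes kept in this way 6 were among the 7, and Hnf4g was not. Emx2 passed on 5 of 15 samples, all of P3 or P4, so its entry into the tests was tied to the days on which it was high.

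The mice were of the CD-1 strain and carried Tg(Crym-EGFP)82Gsat, a bacterial artificial chromosome transgene in which green fluorescent protein is under the control of Crym sequence. All samples on all 5 days came from this reporter line, with pups raised by CD-1 foster mothers, and the labels name no treatment. At P4 the 3 samples carry the label renal vesicle, which is the earliest epithelial stage of a nephron. The 12 samples of P0 to P3, with 3 for each day, are labelled cap mesenchyme, the nephron progenitors around the tips of the ureteric bud. Each sample was a pool of about 4 kidneys of unlabelled sex, sorted by fluorescence, and no gate was stated. The series' design text names cap mesenchyme alone, with no renal vesicle. Label and age change together at P4 and cannot be told apart. Whether the pools came from different litters is not labelled, and the p-values then cover only the spread among the 15 samples, which may be technical.

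Nephron progenitors keep a set of transcription factors that hold them undifferentiated, and Wnt signals from the ureteric bud move some of them into a pretubular aggregate that becomes a renal vesicle. Lhx1, a LIM homeodomain protein, is needed in the renal vesicle for the nephron to be patterned further, and the paired box protein Pax8 acts together with its relative Pax2 in the nephric lineage. Emx2 is a homeodomain protein of the ureteric bud and of early nephron epithelium. The nuclear receptors Hnf4a and Hnf4g belong to proximal tubule cells, with Hnf4a needed for their differentiation. The forkhead proteins Foxc1 and Foxc2 act in the mesenchyme of the early kidney, and Foxc2 later marks podocyte precursors.

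By the RefSeq annotation of GRCm38.p6, the genes lie at chr11:84517975-84525534 (Lhx1), chr2:24420551-24475599 (Pax8), chr19:59458690-59465357 (Emx2), chr2:163506811-163572907 (Hnf4a), chr3:3508030-3659800 (Hnf4g), chr13:31806646-31810635 (Foxc1) and chr8:121116171-121118895 (Foxc2). The 250 bases before the transcription start were found for 5 of the 7 genes, in 6 windows since those of 2 starts were found for Hnf4a. Those of Lhx1, Pax8 and Emx2 are shown here, read in the direction of the gene, because these are the 3 genes whose rise is followed below. Capitals mark the CCAAT box (CCAAT, or ATTGG on the other strand) and the GC box (GGGCGG or CCGCCC).
Lhx1 (chr11:84525535-84525784, minus strand): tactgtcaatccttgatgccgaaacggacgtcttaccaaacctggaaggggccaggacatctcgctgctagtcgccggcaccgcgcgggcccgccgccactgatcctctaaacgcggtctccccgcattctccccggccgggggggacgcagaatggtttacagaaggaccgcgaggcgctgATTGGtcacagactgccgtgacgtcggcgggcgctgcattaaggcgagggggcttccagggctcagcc
Pax8 (chr2:24475600-24475849, minus strand): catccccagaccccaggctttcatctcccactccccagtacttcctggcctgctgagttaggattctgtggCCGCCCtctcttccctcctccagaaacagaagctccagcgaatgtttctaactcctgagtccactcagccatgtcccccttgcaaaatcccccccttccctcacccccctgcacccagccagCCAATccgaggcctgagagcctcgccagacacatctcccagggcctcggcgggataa
Emx2 (chr19:59458440-59458689, plus strand): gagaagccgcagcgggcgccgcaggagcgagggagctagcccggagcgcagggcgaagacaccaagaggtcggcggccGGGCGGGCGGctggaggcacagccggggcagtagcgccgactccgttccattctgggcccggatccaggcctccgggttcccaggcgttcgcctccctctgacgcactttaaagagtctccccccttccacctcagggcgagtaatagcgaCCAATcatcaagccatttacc
Each window held 1 CCAAT box, at 68 bases (Lhx1), 57 bases (Pax8) and 21 bases (Emx2) before the start, counted to the first base of the match. All 6 windows of the 5 genes held it, and 33.8% of the 32851 mouse promoter windows of this length did. The GC box was in 4 of the 6 windows (32.7% of all windows), with 2 overlapping matches in Emx2 and none in Lhx1. CTTTGAA and CTTTGAT, cores of LEF and TCF sites, were in none of the 6 on either strand and in 7.48% of all windows. Also searched for were TGTTTAC, a forkhead core, and TATAAA, the TATA box, found in none of the 6 (3.17% and 12.4% of all windows). TAATTA, a homeodomain core, and GTTAAT, a half-site of HNF1, were each in 1 of the 6, a window of Hnf4a (4.84% and 6.43% of all windows). The Lhx1 window held 26 CpG dinucleotides and the Emx2 window 24, and the Pax8 window held 6, the median of all windows. These matches describe letters, not sites in use.

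The values are on a log2 scale as deposited, and array medians lay between 6.80 and 6.92. Replicate 1 of each day differed from replicates 2 and 3 in its range of values, with interquartile ranges of 2.14 to 2.27 in the 5 first replicates and 2.52 to 2.77 in the other 10 arrays. Of the 11885 genes, 5048 differed between these array sets, and 4 of the 6 genes kept were among them. Hnf4g was not tested for this. Lhx1 was lower in the first replicates by 1.02, Pax8 by 1.00, Emx2 by 0.66 and Hnf4a by 0.34 on the log2 scale. Each day holds 1 array of the first set and 2 of the other, so a block by array set leaves the differences between days at the same size and changes only their error. Each comparison was also fitted with that block, called the set block here. A block by replicate number gave the same calls for the 6 genes tested, except for Foxc1 in the test for unequal means over P0 to P3 (adjusted p = 0.043 with the replicate block and 0.069 with the set block). Blocked p-values are given where they change a call. Differences of the 6 genes that were called with the set block but not in a fit to replicates 2 and 3 alone (10 samples) are marked so. For other genes, Pax2 among them, no such marks are given.

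Of 10 cap mesenchyme markers 9 fell in P4 versus cap mesenchyme (2.32% of all genes called lower). Crym, whose sequence drives the reporter used for sorting, was among them. Of 9 renal vesicle markers 8 rose (3.41% of all genes called higher). Greb1, 1 of the 8, would not have entered the tests without the P4 samples. In P3 versus P0, 6 of each list had passed in the same direction (2.18% of all genes called). The mean of 10 cap mesenchyme markers lay between 8.07 and 8.17 in the P4 samples, against 9.87 to 10.45 at P0 and 9.11 to 9.31 at P3, and Crym itself averaged 7.80 ± 0.16 (SD, n = 3) at P4, against 11.37 ± 0.62 (SD, n = 12) at P0 to P3. The mean of 9 renal vesicle markers was 7.31 to 7.66 at P0, 7.86 to 8.32 at P2, 8.40 to 9.06 at P3 and 8.88 to 9.49 at P4. Some genes listed as markers of neighbouring cells also shifted. The mean of 9 ureteric bud markers was 7.12 to 7.33 at P4, against 6.62 to 6.91 at P0, with Gata3 and Krt8 the 2 of 6 kept that rose. Gata3 is also counted below among the induction and renal vesicle genes. Gata3 was above the median of all values in the 3 P4 samples alone, so that its entry into the tests was tied to its difference, and with no filter its adjusted p was 5.6e-06. Ret and Wnt11 were above the median of all values on no array. The mean of 10 stromal markers was 7.30 to 7.39 at P4, against 7.79 to 7.87 at P0, with Tnc, Meis1 and Foxd1 the 3 of 9 kept that fell in P4 versus cap mesenchyme. Of 8 endothelial and 8 macrophage markers, 6 and 4 did not exceed the median of all values on any array, nor did 2 of 4 erythroid markers. Of the rest kept, Ramp2 fell and no macrophage or erythroid marker passed, 1 macrophage marker (Tyrobp) having an unadjusted p of 0.012. The part of other cell types in the differences below was not tested, and in these pools fewer cells of a type and less RNA per cell cannot be told apart.

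**Figure D1:**
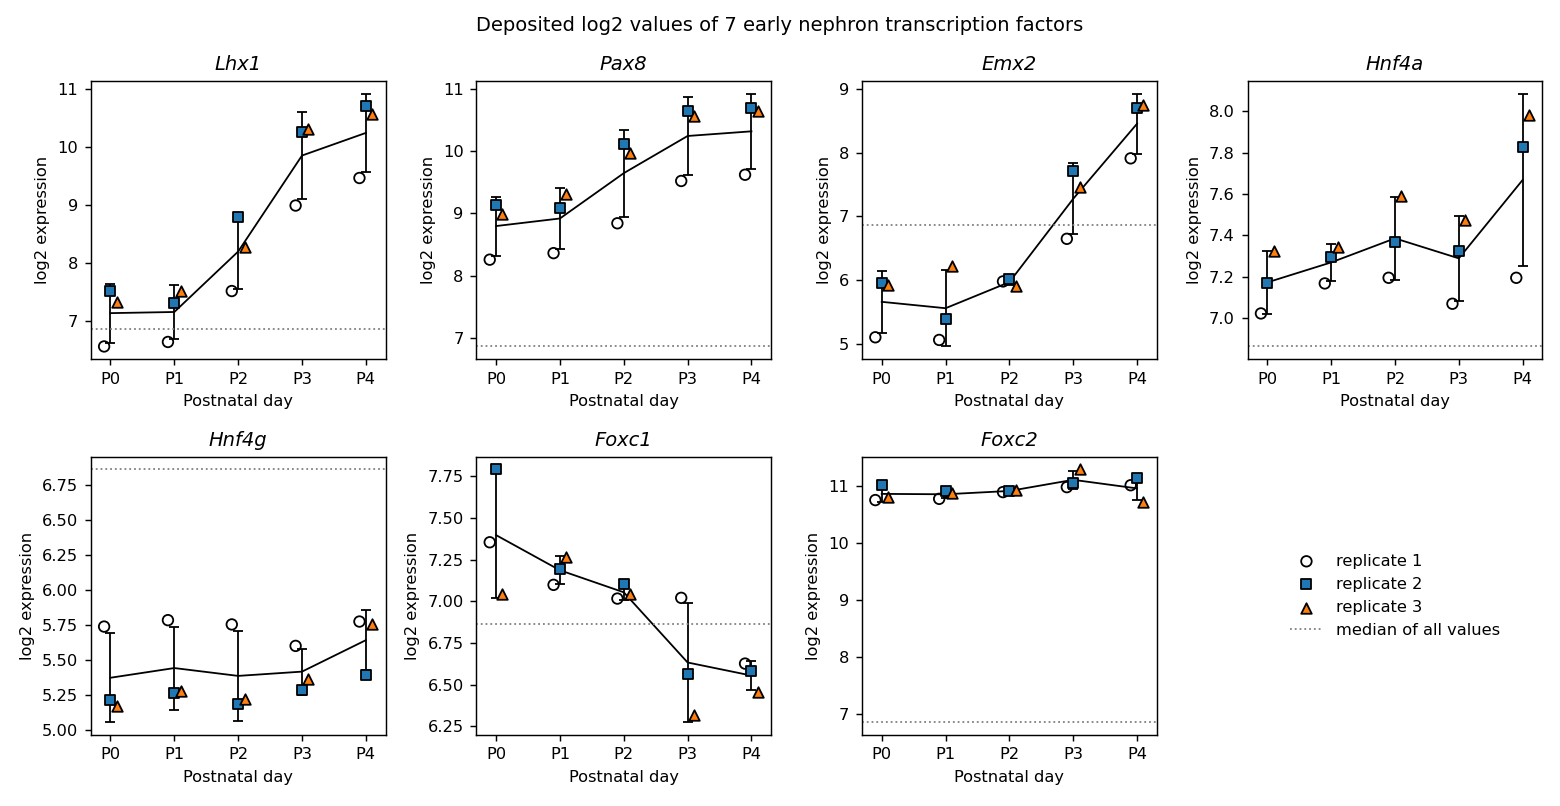
Deposited log2 expression of each gene (y axis, own scale per panel) by postnatal day (x axis) in all 15 samples, with symbols for replicates 1, 2 and 3, lines for the daily means and bars for 1 SD (n = 3). Lhx1, Pax8 and Emx2 ended above all P0 samples, Foxc1 ended below them, Foxc2 stayed between 10.73 and 11.29, and Hnf4g stayed below the dotted median of all values.

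Lhx1 and Pax8 were higher than at P0 from P2 on in the fit with the set block (at P2 not in replicates 2 and 3 alone, adjusted p = 0.0999 for both), Emx2 was higher from P3 on, and Foxc1 was lower from P3 on. In limma over all 15 samples with no block, none of the 6 genes kept differed between P1 and P0, and in P1 versus P0 0 of all genes did (0% called). At an unadjusted p under 0.05 there were 238 genes in that comparison and 0 of the 6. In P2 versus P0 0 of the 6 passed with no block (0.0337% of all genes called). At an unadjusted p under 0.05 there were 396 genes and 1 of the 6. With the set block none passed at P1 (0.16% of all genes called) and Lhx1 and Pax8 passed at P2 (0.328% of all genes called, 0.109% higher). In P3 versus P0 Lhx1, Emx2 and Foxc1 passed with no block (2.18% of all genes called), and in P4 versus P0 these and Pax8 did (5.63% of all genes called). With the set block Pax8 was added at P3 (6.02% of all genes called) and Hnf4a at P4 (10.5% of all genes called). In P4 versus cap mesenchyme 2 of the 6, Lhx1 and Emx2, passed (5.73% of all genes called), and under the set block all but Foxc2 did (11.5% of all genes called). In the test for unequal means over P0 to P3, Lhx1 and Emx2 passed (1.92% of all genes called), and Pax8 was added with the set block (5.58% of all genes called). The median difference of the 6 was 0.65 in P4 versus cap mesenchyme, beside 0.00 over all genes kept.

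Lhx1 had log2 values of 6.56, 7.52 and 7.33 at P0 and of 6.64, 7.31 and 7.52 at P1 (replicates 1, 2 and 3 throughout). It reached 7.52, 8.80 and 8.29 at P2, 8.99, 10.26 and 10.32 at P3, and 9.47, 10.71 and 10.57 at P4. Within each replicate number the P2 value was above the P0 and P1 values, the P3 value above the P2 value and the P4 value above the P3 value. Across replicate numbers the P2 and P0 samples overlapped, since the first P2 replicate and the second P0 replicate were both at 7.52, and the P3 samples lay above every sample of P0 to P2. The gene encodes one of the first renal vesicle regulators, and it had the largest rise of all 11885 genes both in P3 versus P0 and in P3 versus P2.

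Relative to P0, Lhx1 was higher by 1.06 at P2 (SE 0.43), which is 2.09-fold, by 2.72 at P3 (SE 0.43; 6.59-fold) and by 3.11 at P4 (SE 0.43; 8.64-fold). The limma adjusted p was 1.00 at P2, 0.0040 at P3 and 0.00039 at P4. With the array set as a block it was 0.0033 at P2, and leaving out any 1 of the 15 samples kept this between 0.0017 and 0.033. Within the sets the P2 difference was 0.96 in the first replicates and 1.12 in replicates 2 and 3 (adjusted p = 0.0999 in a fit to replicates 2 and 3 alone). Between neighbouring days, P2 over P1 was 1.04 (adjusted p = 1.00; 0.0044 with the set block) and that of Pax8 was 0.73 (1.00; 0.0065), neither of which passed in replicates 2 and 3 alone (adjusted p = 0.14 for both). In that step 0.0841% of all genes were called with no block, none of the 6 among them and 1 of the 6 at an unadjusted p under 0.05, and 0.867% with the set block. For Lhx1, P3 over P2 was 1.66 (adjusted p = 0.23; 8.0e-05 with the set block). P4 exceeded P3 by 0.39, which did not pass either way (adjusted p = 1.00; 0.19 with the set block). On the log2 scale 0.637% of the difference between P4 and P0 was reached at P1, 34.2% at P2 and 87.4% at P3.

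Over P0 to P3, all labelled cap mesenchyme, Lhx1 rose by 0.92 per day (SE 0.14, adjusted p = 0.0018), the second largest slope of all genes, and 3.13% of all genes were called in this slope (7.72% with the set block). The P4 samples averaged 10.25 ± 0.68 (SD, n = 3), against 8.09 ± 1.27 in the cap mesenchyme samples of P0 to P3 (SD, n = 12). That is a difference of 2.16 (4.47-fold, SE 0.34, adjusted p = 0.0010). The P4 mean lay 0.14 under the line through P0 to P3 (SE 0.48, adjusted p = 1.00), and 1.04% of all genes were called against that line.

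**Figure D2:**
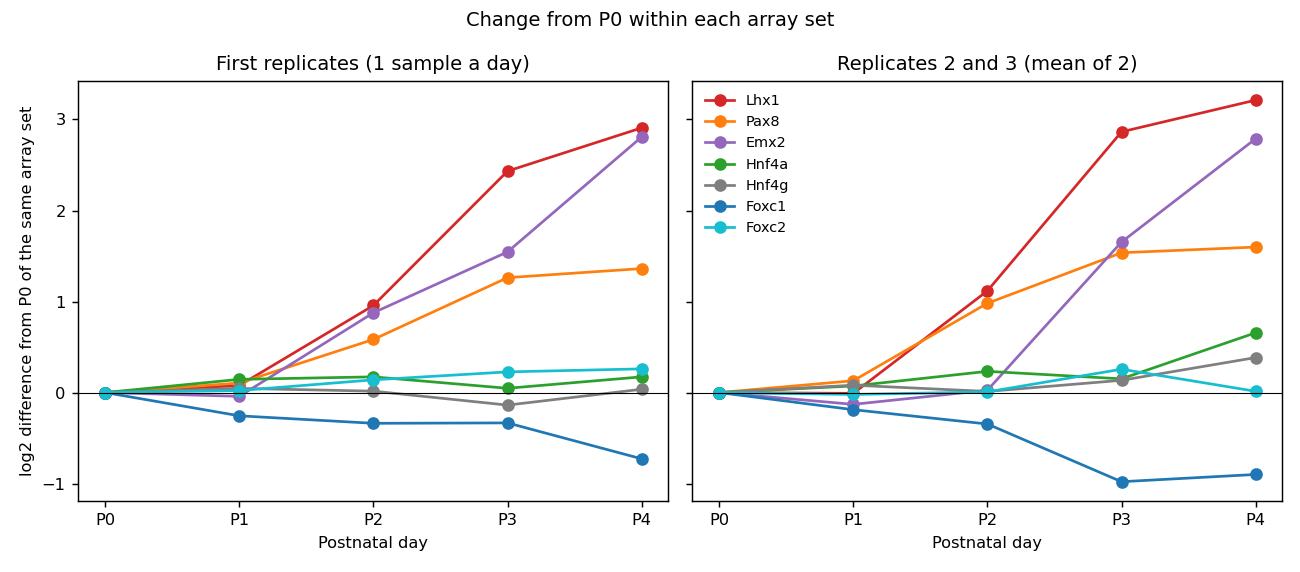
Log2 difference from the P0 value of the same array set (y axis) by postnatal day (x axis), in the first replicates (left, 1 sample a day) and in the mean of replicates 2 and 3 (right). At P2 Lhx1 lay above its P0 value by 0.96 in the first replicates and 1.12 in the others, Pax8 by 0.58 and 0.98, and Emx2 by 0.88 and 0.026.

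Pax8 reached a larger share of its rise by P2 than Lhx1 did, in both array sets, a difference that was not tested. Its values were 8.26, 9.14 and 8.99 at P0, 8.36, 9.08 and 9.31 at P1, 8.84, 10.12 and 9.97 at P2, 9.52, 10.64 and 10.56 at P3 and 9.62, 10.69 and 10.63 at P4. The first replicate was the lowest of its day on each of the 5 days, and P4 exceeded P3 by 0.0998 in the first replicates and by 0.062 in replicates 2 and 3. The protein is a paired box factor of the whole nephric lineage, and its transcript was above the median of all values in every sample, P0 included. Of the difference between P4 and P0, 7.99% was reached at P1, 55.8% at P2 and 95.1% at P3. The P2 share was 42.8% in the first replicates and 61.4% in replicates 2 and 3, against 32.9% and 34.8% for Lhx1.

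Relative to P0, Pax8 was higher by 0.85 at P2 (SE 0.41; 1.80-fold), by 1.44 at P3 (SE 0.41; 2.72-fold) and by 1.52 at P4 (SE 0.41; 2.87-fold). With no block only the P4 difference passed (adjusted p = 1.00 at P2, 0.10 at P3 and 0.045 at P4). The P4 call was lost when any 1 of 9 of the 15 samples was left out, among them each P0 sample (adjusted p up to 0.18), and with no filter on dim genes (0.063). With the array set as a block all 3 differences passed (adjusted p = 0.0028 at P2, 2.9e-06 at P3 and 2.5e-07 at P4), and at P2 it stayed at or under 0.025 without any 1 sample. In replicates 2 and 3 alone the P2 difference did not pass (adjusted p = 0.0999). P3 over P2 was 0.60 (adjusted p = 1.00; 0.012 with the set block, lost without P2 replicate 1, P2 replicate 3 or P3 replicate 2, at up to 0.096, and in replicates 2 and 3 alone, at 0.16). P4 over P3 was 0.075 (95% interval -0.81 to 0.96).

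In P4 versus cap mesenchyme Pax8 averaged 10.31 ± 0.60 (SD, n = 3) at P4, against 9.40 ± 0.79 at P0 to P3 (SD, n = 12). The difference of 0.92 (1.89-fold, SE 0.33) did not pass with no block (adjusted p = 0.15) and passed with the set block (adjusted p = 3.1e-06). It was 0.87 in the first replicates and 0.94 in replicates 2 and 3. The slope over P0 to P3 was 0.51 per day (SE 0.13), just outside the threshold with no block (adjusted p = 0.051) and inside it with the set block (9.2e-07).

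Its relative Pax2, which acts in the ureteric bud and in the progenitors as well, changed less. Pax2 averaged 10.66 ± 0.41 (SD, n = 3) at P4, against 10.77 ± 0.45 at P0 to P3 (SD, n = 12), a difference of -0.11 (SE 0.26, adjusted p = 0.96). In P3 versus P0 it differed by 0.46 (adjusted p = 0.75; 0.027 with the set block, not checked in replicates 2 and 3 alone), beside 1.44 for Pax8. The change of Pax8 exceeded that of Pax2 by 1.03 (exact two-sided permutation test over the 15 samples, p = 0.0044, adjusted p = 0.0132 over the 3 pairs compared, smallest possible p 0.0022). Without P4 replicate 2 or P4 replicate 3 the adjusted p was up to 0.0659.

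**Figure D3:**
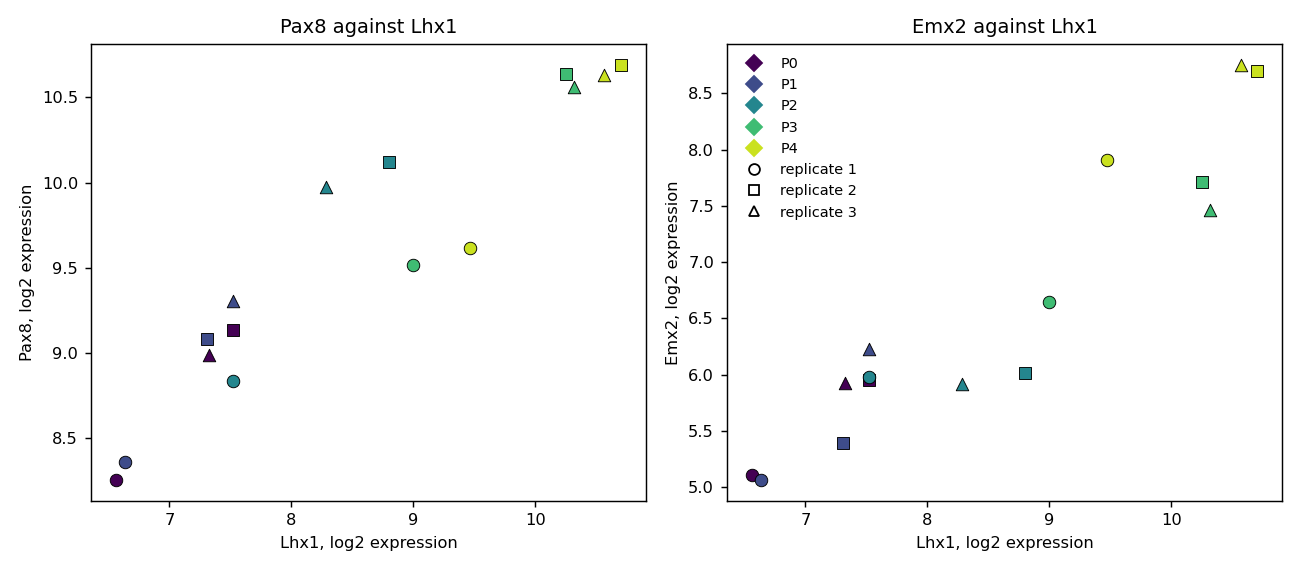
Pax8 (left) and Emx2 (right) against Lhx1 in the 15 samples, all on log2 scales, coloured by day with symbols for replicate numbers. Pax8 climbed together with Lhx1 through P2 and P3, while Emx2 in the P2 samples of replicates 2 and 3 (6.01 and 5.91) was still at its P0 level, with Lhx1 at 8.80 and 8.29.

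With the set block Emx2 was first higher than at P0 at P3, and higher again in P4 versus P3. Its values were 5.10, 5.95 and 5.93 at P0, 5.06, 5.39 and 6.23 at P1 and 5.98, 6.01 and 5.91 at P2, then 6.65, 7.72 and 7.47 at P3 and 7.91, 8.70 and 8.76 at P4. Every P3 sample was above every sample of P0 to P2, and every P4 sample was above every P3 sample. All values of P0 to P2 were under the median of all values. Emx2 encodes a homeodomain factor required for the epithelium of the developing urogenital system.

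Relative to P0, Emx2 differed by 0.31 at P2 (SE 0.34, adjusted p = 1.00; 0.79 with the set block), and was higher by 1.62 at P3 (SE 0.34; 3.07-fold, adjusted p = 0.022) and by 2.80 at P4 (SE 0.34; 6.94-fold, adjusted p = 0.00012). The P3 call was lost without P0 replicate 1, P0 replicate 3, P3 replicate 2 or P3 replicate 3 (adjusted p up to 0.094), and with the set block it held without any 1 sample (up to 0.0018). The P2 difference was 0.88 in the first replicates and 0.026 in replicates 2 and 3. P3 over P2 was 1.31 (adjusted p = 0.22; 0.0039 with the set block) and P4 over P3 was 1.18 (adjusted p = 0.15; 0.0036 with the set block). In P3 versus P2, 0.143% of all genes were called with no block and 1.23% with the set block, and in P4 versus P3 1.49% and 3.35%. None of the 6 genes passed in either step with no block, where 3 and 1 of them had an unadjusted p under 0.05, and Emx2 alone passed in P4 versus P3 with the set block. Of the difference between P4 and P0, 11.1% was reached at P2 and 57.9% at P3.

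At P4 Emx2 averaged 8.46 ± 0.47 (SD, n = 3), against 6.12 ± 0.82 in cap mesenchyme of P0 to P3 (SD, n = 12), a difference of 2.34 (5.06-fold, SE 0.27, adjusted p = 5.4e-05). With no filter on dim genes the adjusted p was 8.0e-05. The slope over P0 to P3 was 0.53 per day (SE 0.11, adjusted p = 0.014), lost without P0 replicate 1, P3 replicate 2 or P3 replicate 3 (up to 0.058). The P4 mean lay 1.02 above the line through P0 to P3 (SE 0.38), with an adjusted p of 0.44 with no block and 0.024 with the set block, where 2.64% of all genes were called. The blocked call was lost without P2 replicate 2, P3 replicate 1, P4 replicate 2 or P4 replicate 3 (up to 0.092), and in replicates 2 and 3 alone (0.084). Emx1, the other gene of this family, stayed within 7.41 and 7.96 in all samples and its P4 difference of 0.19 (SE 0.10) did not pass (adjusted p = 0.47).

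The onset day, the first day that differed from P0 at an adjusted p under 0.05 and kept its direction afterwards, was therefore P3 for Lhx1 and Emx2 and P4 for Pax8 with no block, and P2 for Lhx1 and Pax8 and P3 for Emx2 with either block. Without any 1 sample the unblocked onset of Lhx1 stayed at P3 in 15 of 15 fits, and that of Emx2 was P3 in 11 and P4 in 4. That of Pax8 was P3 in 1, P4 in 5 and absent in 9. By the samples alone, P3 was the first day on which all 3 samples lay above all 3 P0 samples for each of Lhx1, Pax8 and Emx2. The share of all genes separated in this way was not counted, so this only describes the samples. With the set block, Lhx1 and Pax8 were 2 of 13 genes called higher at P2. The other 11, named after their values were seen, were Bmp2, Ccnd1, Creg1, E2f7, Gm10522, Hey1, Igsf5, Kcnma1, Lama4, S100a16 and Tmem150c. In replicates 2 and 3 alone 1 gene in all passed in P2 versus P0, and it was neither Lhx1 nor Pax8. Ccnd1 drives entry into the cell cycle, Hey1 is a Notch target and Bmp2 is a signal of the renal vesicle.

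**Figure D4:**
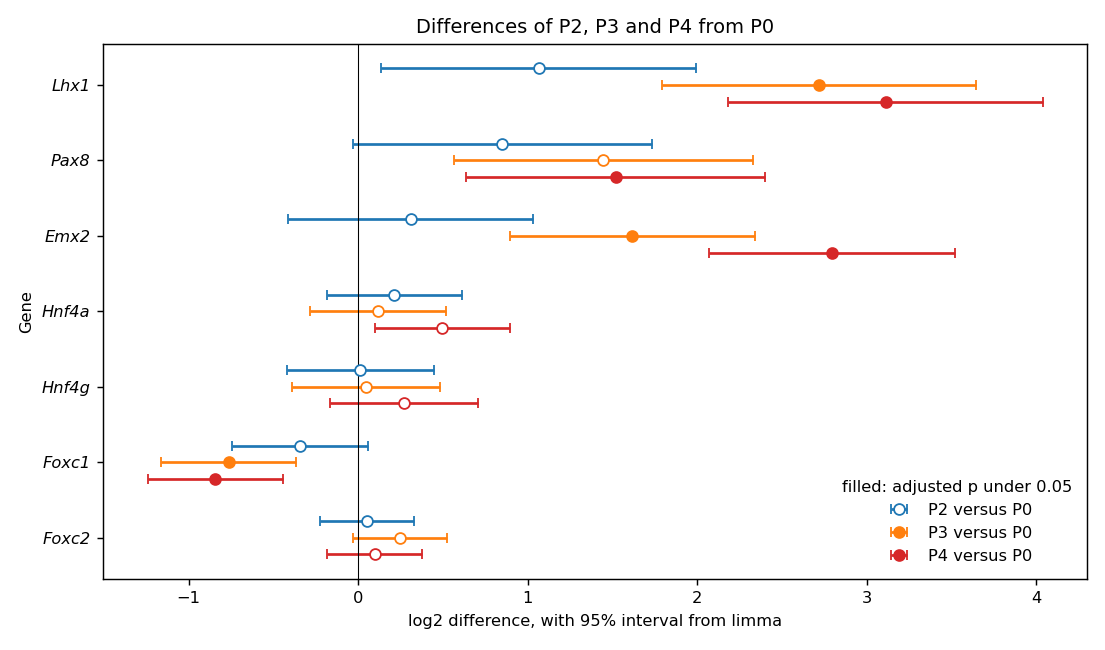
Log2 differences of P2, P3 and P4 from P0 (x axis) with 95% intervals from limma with no block, for the 7 genes (y axis), filled where the adjusted p was under 0.05. The intervals of Lhx1 exclude 0 on each of the 3 days, those of Foxc1 lie below 0 at P3 and P4, and those of Foxc2 and Hnf4g include 0 throughout.

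Hnf4a stayed near its P0 level up to P3. Its values were 7.02, 7.17 and 7.32 at P0, 7.17, 7.30 and 7.34 at P1, 7.19, 7.37 and 7.59 at P2, 7.07, 7.32 and 7.47 at P3 and 7.19, 7.83 and 7.98 at P4. Replicates 2 and 3 of P4 were above all other samples, and the first P4 replicate was inside the range of P0. The antisense transcript Hnf4aos, which overlaps the gene, lay between 5.92 and 6.46 in all samples. Hnf4a encodes a nuclear receptor that drives proximal tubule genes.

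In P4 versus cap mesenchyme Hnf4a averaged 7.67 ± 0.42 (SD, n = 3) at P4, against 7.28 ± 0.16 at P0 to P3 (SD, n = 12). The difference of 0.39 (SE 0.15, 1.31-fold) did not pass with no block (adjusted p = 0.19) and passed with the set block (0.014), where it was lost without P4 replicate 2 or P4 replicate 3 (up to 0.13). Without P4 replicate 1 it was 0.63 and passed with no block (adjusted p = 0.013). It was 0.081 in the first replicates and 0.54 in replicates 2 and 3 (adjusted p = 0.015). P4 over P0 was 0.50 (SE 0.19, adjusted p = 0.19), and its call with the set block (0.014) was lost without P0 replicate 2, P4 replicate 2 or P4 replicate 3 (up to 0.075). The slope over P0 to P3 was 0.046 per day (95% interval -0.080 to 0.17).

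For Hnf4a the windows of 2 starts were found, and that of the downstream one is shown because it alone held the half-site GTTAAT of the tubule factor HNF1. The upstream window, chr2:163506607-163506856, ends past the first base of the gene as given above.
Hnf4a (chr2:163546905-163547154, plus strand): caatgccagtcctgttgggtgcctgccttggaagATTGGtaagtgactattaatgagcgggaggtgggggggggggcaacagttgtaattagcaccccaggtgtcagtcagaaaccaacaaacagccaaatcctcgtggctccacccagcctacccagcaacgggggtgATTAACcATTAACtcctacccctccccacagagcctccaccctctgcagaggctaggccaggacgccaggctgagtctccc
Capitals mark the CCAAT box, 216 bases before the start, and 2 copies of ATTAAC, the half-site on the other strand, at 81 and 74 bases. Of all promoter windows, 6.43% held GTTAAT on either strand. The array does not separate the starts.

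Hnf4g was between 5.17 and 5.79 in all 15 samples, under the median of all values on every array. It averaged 5.64 ± 0.22 (SD, n = 3) at P4, against 5.41 ± 0.24 at P0 to P3 (SD, n = 12). Tested with no filter, its difference was 0.24 (SE 0.16, adjusted p = 0.81). The changes of Hnf4a and Hnf4g differed by 0.15 (exact permutation test, two-sided, p = 0.525). On each day the first replicate was the highest for Hnf4g and the lowest for Hnf4a, which this test did not account for.

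Foxc1 was lower at P3 and P4 than at P0, and no difference passed for its paralog Foxc2. Foxc1 had values of 7.35, 7.79 and 7.05 at P0, 7.10, 7.19 and 7.27 at P1, 7.02, 7.10 and 7.04 at P2, 7.02, 6.56 and 6.31 at P3 and 6.63, 6.58 and 6.45 at P4. All P3 and P4 samples were below all P0 samples, the first P3 replicate by the smallest margin, and the P4 samples were below the median of all values. The protein is a forkhead factor of early kidney mesenchyme. Its promoter window is shown as that of the 1 gene that fell, with capitals as before.
Foxc1 (chr13:31806396-31806645, plus strand): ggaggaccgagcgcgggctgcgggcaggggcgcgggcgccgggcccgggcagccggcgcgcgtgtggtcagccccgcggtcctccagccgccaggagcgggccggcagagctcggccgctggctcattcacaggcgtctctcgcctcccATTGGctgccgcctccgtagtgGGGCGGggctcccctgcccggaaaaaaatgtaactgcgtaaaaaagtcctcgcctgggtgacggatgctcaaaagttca
The CCAAT box lay 101 bases and the GC box 79 bases before the start, and the window held 29 CpG dinucleotides.

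Relative to P0, Foxc1 was lower at P3 by 1.70-fold (log2 difference -0.76, SE 0.19, adjusted p = 0.049) and at P4 by 1.79-fold (-0.84, SE 0.19, adjusted p = 0.013). The P3 call was lost without any 1 of 13 of the 15 samples (adjusted p up to 0.21). The P4 call was lost without P0 replicate 2 or P4 replicate 3 (up to 0.066). With the set block the P4 call held without any 1 sample (up to 0.024), and the P3 call (0.016) was lost without P0 replicate 2 or P3 replicate 3 (up to 0.070). At P3 the difference was -0.33 in the first replicates and -0.98 in replicates 2 and 3, and at P4 it was -0.73 and -0.90. Without any 1 sample the unblocked onset of the fall was P3 in 2 fits, P4 in 11 and absent in 2. The slope over P0 to P3 was -0.24 per day (SE 0.06, adjusted p = 0.038; lost without any 1 of 11 samples). In P4 versus cap mesenchyme Foxc1 averaged 6.55 ± 0.09 (SD, n = 3) at P4, against 7.07 ± 0.37 at P0 to P3 (SD, n = 12), a difference of -0.51 (SE 0.15) that did not pass with no block (adjusted p = 0.058) and passed with the set block (0.025; lost without any 1 P4 sample, at up to 0.12, and in replicates 2 and 3 alone, at 0.11). The mean of the stromal markers was also lower at P3 (7.23 to 7.50) and P4 than at P0, and Foxd1, a factor of stromal progenitors, fell by 0.74 on the log2 scale in P4 versus cap mesenchyme (adjusted p = 0.0051), as did Meis1 by 0.78 (adjusted p = 0.0027). The other 6 of the 9 stromal markers kept, Tnc aside, did not pass in that comparison, where the median difference of the 9 was -0.011. Relative to P0 the median was -0.43 at P3, with 2 of the 9 passing, both lower (2.18% of all genes called). At P4 it was -0.42, with 4 of the 9 passing, all lower (5.63% of all genes called). The part of stromal cells in the fall of Foxc1 was not tested.

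Foxc2 lay between 10.73 and 11.29 in all samples and averaged 10.96 ± 0.21 (SD, n = 3) at P4, against 10.94 ± 0.15 at P0 to P3 (SD, n = 12). The difference was 0.023 (95% interval -0.20 to 0.24, adjusted p = 0.98), and its sign turned in replicates 2 and 3 alone (-0.047), after median centring (-0.0094) and without P4 replicate 1 or P4 replicate 2 (down to -0.066). The change of Foxc1 was below that of Foxc2 by 0.54 (exact permutation test, two-sided, p = 0.0769, adjusted p = 0.115), which did not pass. Without P3 replicate 3 it did (-0.64, adjusted p = 0.0124).

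Other transcription factors of the early nephron were taken as a list of 28, of which 20 were kept. In P4 versus cap mesenchyme 8 of the 20 rose, 1 fell and 11 did not pass, with 3.41% of all genes called higher and 2.32% lower, and a median difference of 0.35. The rises of Tfap2b (2.41, 5.33-fold, adjusted p = 2.8e-07), Tfap2a (2.26, 4.80-fold), Sim1 (2.21, 4.63-fold) and Mecom (1.90, 3.74-fold) stood beside 2.34 for Emx2 and 2.16 for Lhx1. Tfap2b was above the median of all values in the 3 P4 samples alone and Tfap2a in these and 1 other, so both entered the tests through the group in which they were high, and with no filter their adjusted p was 3.9e-07 and 1.6e-06. Tfap2a and Tfap2b encode AP-2 factors of distal nephron and collecting duct epithelium. Their slopes over P0 to P3 were 0.31 per day for Tfap2a (adjusted p = 0.015), 0.017 for Tfap2b (0.97), 0.17 for Sim1 (0.32) and 0.12 for Mecom (0.49), beside 0.92 for Lhx1. In P3 versus P0 2 of the 20 passed, both higher (2.18% of all genes called).

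Of 17 transcription factors of the progenitors kept, 10 fell and 7 did not pass in P4 versus cap mesenchyme, with a median difference of -0.59. Of all genes, 2.32% were called lower. The list shares genes with the cap mesenchyme markers above, Six2 and Meox1 among them. Meox1 was 6.84-fold lower, Six2, the factor that maintains progenitors, 4.44-fold lower, Eya1, its partner, 4.15-fold lower and Meis2 2.60-fold lower at P4. Of the same 17, 5 had fallen in P3 versus P0 (2.18% of all genes called), and with the set block 9 had fallen and 2 had risen (6.02%). In P2 versus P0, where Lhx1 and Pax8 passed with the set block, 0 of the 17 passed by limma with or without it. Of all genes, 0.0337% were called there with no block and 0.328% with the set block. At an unadjusted p under 0.05 there were 3 of the 17, all lower at P2, beside 396 of the 11885 genes.

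Of 23 induction and renal vesicle genes kept, 16 rose, 1 fell and 6 did not pass in P4 versus cap mesenchyme, with a median difference of 1.00. Of all genes, 3.41% were called higher and 2.32% lower. The renal vesicle markers counted above are part of this list, so the counts overlap. Cdh1, the epithelial cadherin, was 3.49-fold higher, Lama1, a basement membrane laminin, 5.60-fold, Gata3 3.67-fold and Cdh6, the cadherin of the renal vesicle, 3.34-fold. Gata3, Greb1 and Lgr5, 3 of the 16, would not have entered the tests without the P4 samples, and each also passed with no filter. At P3 versus P0 10 of the 23 had risen (2.18% of all genes called) and at P2 versus P0 1 had (0.0337%). Cofactors that bind LIM homeodomain proteins such as Lhx1 were also examined. Of 9 kept, 0 passed by limma in either direction and 1 had an unadjusted p under 0.05 in P4 versus cap mesenchyme (median difference -0.10). Ldb2 was at -0.53 (unadjusted p = 0.030, adjusted p = 0.25), Rlim at 0.21 (adjusted p = 0.44), Ssbp2 at -0.27 (0.49) and Ssbp4 at -0.11 (0.87).

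Genes of the compartments in which the HNF4 and FOXC factors are known to work were examined in P4 versus cap mesenchyme. Of all genes, 3.41% were called higher and 2.32% lower there. Of 15 proximal tubule genes kept from 30 listed, 4 rose and 11 did not pass. They were Dpp4, a brush border peptidase, 6.53-fold higher (adjusted p = 9.1e-08; 1.3e-07 with no filter, as it too would not have entered without the P4 samples), Lrp2, the endocytic receptor megalin, 1.57-fold (0.00079), and the organic anion transporters Slc22a6, 1.36-fold (0.025), and Slc22a8, 1.46-fold (0.025). The median difference of the 15 was 0.22. Of 14 podocyte genes kept from 20 listed, 6 rose and 1 fell, with a median of 0.32, and 1 of the 6 (Podxl) would not have entered without the P4 samples. Efnb2, an ephrin ligand, was 3.07-fold higher, Dach1 2.42-fold and Npnt, a matrix ligand, 1.97-fold, while Robo2, a receptor for Slit proteins, was 3.10-fold lower. Npnt is also in the list of induction and renal vesicle genes above. Nphs1 and Synpo, genes of mature podocytes, did not pass the filter.

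The genes whose values followed each factor most closely over the 15 samples, after the mean of each array set was subtracted, are given as a description, since samples of 1 day share their day and genes are not independent. For Lhx1 they were Clu (Pearson r = 0.988), a secreted chaperone, Pdzd2 (0.987) and Rai14 (0.982). For Pax8 they were E2f7 (0.984), a cell cycle repressor, Ccnd1 (0.980) and Lhx1 itself (0.978). For Emx2 they were Efnb2 (0.976), Cdh6 (0.974) and Pygl (0.973), a glycogen phosphorylase. Lhx1 and Emx2 had r = 0.937 and Pax8 and Emx2 r = 0.869. Ccnd1 averaged 9.53, 9.62, 10.67, 11.61 and 11.59 at P0 to P4 and, like Pax8, differed little between P3 and P4. For Hnf4a they were Alox15 (0.938), Chchd10 (0.924) and Slc22a6 (0.919), for Foxc1 Rps28 (0.964), Reps1 (0.957) and Rpl19 (0.943), and for Foxc2 Ccp110 (0.913), Gps2 (0.903) and Primpol (0.887). Between Foxc1 and Lhx1 r was -0.845.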

How the data were processed

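RNA of the sorted cells went through 1 round of WT-Ovation Pico amplification and onto 1-colour Affymetrix arrays of the Mouse Gene 1.0 ST class. The authors deposited log2 values of 35557 probe sets for 15 samples, which the labels credit to Affymetrix Expression Console. Version, algorithm and background correction are not stated in those sources, and values of dim genes that hold background would understate folds. The values were used as deposited.

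Of the probe sets, 21789 had 1 symbol in the platform table, 1621 several and 12147 were not listed there. Where a gene had more than 1 (999 genes), the brightest on average was used. A mean for each day was fitted to all 15 samples with limma 3.58.1 in R 4.3.3 (lmFit, eBayes, two-sided), with Benjamini-Hochberg adjustment over the 11885 genes kept and a threshold of 0.05. Folds are 2 to the power of the log2 difference. The limma steps with no block were tested on simulated data with independent errors. The simulation held no array set effect, so it does not bear on the blocks. Paralog pairs were compared by exact permutation over samples, without regard to array set. Permutation within array sets, run as an alternative, left the sign and the call of each pair the same. Promoter windows are from RefSeq, GRCm38.p6. The 7 members, the gene lists and the tests were chosen with earlier results of these data known. From each list up to 4 genes with the smallest p in P4 versus cap mesenchyme are named, with the members, Pax2, Emx1 and the 3 closest patterns. Genes beyond this rule were singled out after their values were seen.

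Replicate numbers were read from the sample titles (none for the first of a day). Deviations of same-numbered samples from their day means correlated over 0.1 in 18 of 18 pairs of P0 to P3 (0.138 to 0.797). Over all days they did so in 29 of 30 pairs (lowest 0.0782, P1 with P4). The numbers thus met the bar for pairs in every contrast but P4 versus cap mesenchyme and P4 versus the line. The array set was not removed first, and replicate 1 of every day is of the first set. These correlations therefore cannot tell pairing from the array set. The fits reported had no block unless one is named. Alternatives were a block by array set or replicate number, replicates 2 and 3 only, quantile normalization, median centring, other filters, a robust trend, the mean over probe sets, only the groups compared, and leaving out each sample. Leaving out each sample under the set block was added after the data were seen. Depth does not apply to arrays, and the number of samples limits the precision.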

Additional observations from a re-analysis of the deposited data

How the results depend on the processing

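With the replicate block the numbers of genes past the threshold were 1435 in P4 versus cap mesenchyme (681 with no block), 1323 in P4 versus P0 (669), 770 in P3 versus P0 (259), 52 in P2 versus P0 (4), 20 in P1 versus P0 (0), 114 in P2 versus P1 (10), 144 in P3 versus P2 (17), 422 in P4 versus P3 (177), 1009 in the slope (372), 334 against the line (124) and 727 for any difference among P0 to P3 (228). With the array set as a block they were, in the same order, 1363, 1249, 716, 39, 19, 103, 146, 398, 918, 314 and 663. Requiring all 15 samples above the median, which leaves fewer genes and drops Lhx1, Emx2 and Foxc1, gave 371, 354, 140, 0 (P2 versus P0), 16 (P2 versus P1), 10 (P3 versus P2), 68 (P4 versus P3), 208, 53 and 124. Fits to only the groups compared, with fewer samples, gave 65 in P3 versus P0, 41 in P4 versus P3 and 0 in P2 versus P0, P2 versus P1 and P3 versus P2. Quantile normalization gave 2 in P1 versus P0, 8 in P2 versus P0, 55 in P2 versus P1, 48 in P3 versus P2 and 347 for any difference, replicates 2 and 3 gave 1 in P2 versus P0 and in P2 versus P1 and 83 in P3 versus P2, and median centring gave 2 in P2 versus P1. The cause of these shifts was not tested.

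Leaving out 1 sample gave 417 to 770 genes in P4 versus cap mesenchyme, 455 to 738 in P4 versus P0, 121 to 261 in P3 versus P0, 0 to 10 in P2 versus P0, 0 to 2 in P1 versus P0, 0 to 23 in P2 versus P1, 1 to 55 in P3 versus P2, 99 to 187 in P4 versus P3, 183 to 381 in the slope, 69 to 127 against the line and 121 to 225 for any difference. Samples whose loss moved a count by over 1.5 times were P4 replicates 2 and 3 in P4 versus cap mesenchyme, P0 replicates 2 and 3 and P3 replicates 2 and 3 in P3 versus P0, P3 replicate 1 and P4 replicates 2 and 3 in P4 versus P3, P0 replicates 2 and 3 and P3 replicate 3 in the slope, P4 replicate 3 against the line, and P0 replicate 3, P1 replicate 2 and P3 replicates 2 and 3 for any difference. In P1 versus P0 it was P3 replicate 3, in P2 versus P0 P0 replicate 3, P1 replicate 2, P3 replicate 3 and each P2 sample, in P2 versus P1 P1 replicates 1 and 2, P3 replicate 3 and each P2 sample, and in P3 versus P2 P1 replicate 2, P2 replicates 2 and 3 and each P3 sample.

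The onset day of Lhx1 was 2 with either block, that of Pax8 was 2 with either block and 3 in replicates 2 and 3 and after quantile normalization, that of Emx2 was 4 in the fit to only the groups compared, and that of Foxc1 was 4 after median centring, with no filter and in the fit to only the groups compared. Without 1 sample they ran over 3 to 4 for Pax8, Emx2 and Foxc1 and stayed at 3 for Lhx1. Pax8 had none with no filter or with the filter on all samples. Signs turned for Foxc2 in P4 versus cap mesenchyme (-0.047 in replicates 2 and 3, -0.0094 after median centring, -0.066 to 0.14 without 1 sample, and -0.055 to 0.16 without 1 sample under the set block, being -0.047 without P4 replicate 1), for Lhx1 in P4 versus P3 (-0.041 to 0.78 without 1 sample) and for Pax8 there (-0.29 to 0.42). Without 1 sample the paralog differences ran over 0.95 to 1.14 for Pax8 and Pax2, -0.64 to -0.46 for Foxc1 and Foxc2, which passed without P3 replicate 3, and -0.052 to 0.46 for Hnf4a and Hnf4g. Of 849 planned refits of single genes, 743 kept direction and call, 51 lost the call, 47 gained it and 8 changed sign. With 3 samples a day, small differences such as those of Foxc2 and Hnf4a between days are not resolved.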
